A study of Mus musculus with 4 samples.

Results

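The proteins of the cytosolic ribosome were followed through cultured fat-derived cells, together with Rpl39l, a paralogue counted at a far higher level in the inguinal cultures than in the epididymal ones. Members were the 84 genes of 32285 measured whose symbol begins with Rpl or Rps followed by a number, with an optional a, x, y or l ending, or is a P0 to P2 stalk protein (Rplp) or Rpsa. Mitochondrial ribosomal proteins and those that carry other symbols, such as Fau and Rack1, were kept apart as lists. Floating adipocytes of inguinal (iWAT) or epididymal (eWAT) white adipose tissue were grown in ceiling culture into de-differentiated fat (DFAT) cells, which gave iWAT_DFAT and eWAT_DFAT. The iWAT_ASPC and eWAT_ASPC libraries hold plated cells of the stromal vascular fraction (SVF) of these depots, named ASPCs here after adipose stem and progenitor cells, although the SVF also brings endothelial, mesothelial, glial and immune cells into culture. All 4 were primary cultures from chow-fed C57BL/6J male mice with no further treatment or allele, and the age of these animals is not given in the sources used here. Each condition is 1 library, so no spread between cultures was measured and no test across samples was run, and every interval below is a 95% interval for counting error only.

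Each ribosome carries a small subunit, which reads the messenger RNA, and a large subunit, which joins amino acids and releases the chain through an exit tunnel. Nearly every protein of these subunits is needed in equal number, and their genes are known for a joint, high and even expression in all growing cells. A few have paralogues with a narrower range of tissues. Rpl3l is known from skeletal and heart muscle, Rpl10l and Rpl39l from the testis, while Rpl22l1, Rpl36al, Rps27l and Rpl7l1 are found in many tissues. Rpl39, one of the smallest ribosomal proteins, lies in the wall of the exit tunnel, and Rpl39l can take its place there.

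The coding sequences of Rpl39 and Rpl39l are shown because the counts below depend on telling their transcripts apart. Both are 156 bases long with the stop codon, and the 23 positions at which they differ are in capitals (GENCODE M21, GRCm38):
Rpl39: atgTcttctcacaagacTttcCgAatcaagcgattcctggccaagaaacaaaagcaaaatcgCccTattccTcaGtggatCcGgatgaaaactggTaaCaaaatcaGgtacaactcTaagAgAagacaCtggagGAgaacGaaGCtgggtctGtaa
Rpl39l: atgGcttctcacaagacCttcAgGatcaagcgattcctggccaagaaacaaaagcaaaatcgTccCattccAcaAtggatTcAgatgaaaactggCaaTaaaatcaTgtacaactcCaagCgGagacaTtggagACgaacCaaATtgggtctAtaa
Over the coding sequence 85.3% of positions were identical, and the longest run that the chosen spliced transcripts shared was 38 bases. The other paralogues shared between 54.5% (Rpl7l1 with Rpl7) and 87.9% (Rpl36al with Rpl36a) of aligned coding positions with their main gene, and no shared run was longer than that of Rpl39l. Ribosomal protein genes also have many near-identical processed copies in the genome, and the counting of reads that match several of them was not examined, so the level of any single member is uncertain to that extent.

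Rpl39l lies on chromosome 16 (GRCm38, 10170226 to 10174911, plus strand, identifier ENSMUSG00000039209), and no other annotated gene overlapped it. Its RefSeq promoter, 250 bases before to 50 after the start (GRCm38.p6, chr16:10169978-10170277, plus strand), is shown beside that of Rpl39 (chrX:37085173-37085472, minus strand), with the letters CCGGAAG, the core bound by ETS factors, in capitals on either strand:
Rpl39l: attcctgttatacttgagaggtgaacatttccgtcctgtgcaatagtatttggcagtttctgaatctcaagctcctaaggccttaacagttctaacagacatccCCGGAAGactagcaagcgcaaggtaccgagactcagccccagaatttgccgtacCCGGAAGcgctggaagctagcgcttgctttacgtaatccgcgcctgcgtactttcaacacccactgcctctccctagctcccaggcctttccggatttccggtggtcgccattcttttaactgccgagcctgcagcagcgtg
Rpl39: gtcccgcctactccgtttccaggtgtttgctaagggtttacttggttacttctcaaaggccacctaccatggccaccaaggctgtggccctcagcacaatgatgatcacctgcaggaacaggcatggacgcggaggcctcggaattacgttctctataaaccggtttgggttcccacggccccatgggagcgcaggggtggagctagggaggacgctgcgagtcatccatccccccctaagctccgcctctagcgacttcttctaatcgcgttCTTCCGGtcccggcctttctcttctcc
The motif occurred at 2 places in the Rpl39l promoter and at 1 in that of Rpl39. RefSeq promoters were matched for 64 of the 84 members, and 26 of them (40.6%) held CCGGAAG, against 9.93% of the promoters of all 27025 genes. GGGCGG, the GC box, was in 62.5% of member promoters and 38.2% of all and TATAAA in 10.9% and 15.7%. AAGATGGC, a YY1-type motif, was in 9.38% and 3.19%. These are matches of letters on both strands and not binding sites.

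Messenger RNAs of ribosomal proteins are known to begin with a run of C and T, the terminal oligopyrimidine tract through which mTOR adjusts their translation. The 20 bases before and the 20 from the annotated start on are shown for both genes and for Rps2, Rpl13 and Rpsa, the members with the highest mean levels that have a RefSeq promoter, with the longest run of C and T, or the first of them, in capitals:
Rpl39l: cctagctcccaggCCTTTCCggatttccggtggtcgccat
Rpl39: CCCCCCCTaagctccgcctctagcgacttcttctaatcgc
Rps2: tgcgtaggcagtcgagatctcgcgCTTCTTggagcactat
Rpl13: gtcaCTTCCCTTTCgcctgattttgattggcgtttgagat
Rpsa: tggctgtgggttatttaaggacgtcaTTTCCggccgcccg
The run held 7 bases in Rpl39l, 8 in Rpl39, 6 in Rps2, 10 in Rpl13 and 5 in Rpsa. In Rpl39l and Rpl13 it lay wholly before the annotated start, and so did the run in capitals of Rpl39, which holds another run of 8 after the start, so these letters are not shown to be the first bases of the RNA. The longest run had a median of 7 bases over the matched members, as in Rpl39l, and of 5 over all genes. A run of 8 or more occurred in 30 of the 64 member promoters (46.9%) and in 18.4% of all promoters.

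The kept barcodes, called cells here, held 5000 to 75000 UMIs (unique molecular identifiers, each standing for 1 captured RNA molecule), 200 to 7500 genes and under 10% mitochondrial UMIs. Between 6464 and 7629 barcodes per library passed, with medians of 22111 to 27617 UMIs and totals of 183664704 to 199357348. Of these cells 94.9% to 99.3% held at least 3 of 11 ASPC markers, and 57 cells of iWAT_DFAT, 419 of eWAT_DFAT, 225 of iWAT_ASPC and 733 of eWAT_ASPC held 3 or more markers of an endothelial, mesothelial, glial, immune, adipocyte or pericyte list. Any pair of libraries shared 13 to 20 barcodes. The file of iWAT_ASPC names another version of the counting program than the other files, and genes spanning 100000 bases or more, whose counts respond to whether introns are counted, took 9.27% of UMIs there and 9.07% to 11.4% in the others. Doublets were not removed.

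Ribosomal protein transcripts made up about 20% of all RNA molecules captured in every culture. They took 19.4% of UMIs in iWAT_DFAT, 20.6% in eWAT_DFAT, 21.4% in iWAT_ASPC and 20.5% in eWAT_ASPC. The order put inguinal ASPCs first and inguinal DFAT cells last, with both epididymal cultures between them and nearly level. The median cell held 19.6%, 20.7%, 21.5% and 20.4% in the same order of libraries, and its middle quartiles ran from 17.5% to 21.7% in iWAT_DFAT and from 19.1% to 24.0% in iWAT_ASPC, so cells of all libraries overlapped widely. Genes of the large subunit held between 1.25 and 1.27 times the UMIs of the small subunit genes. Droplets with 1 to 100 UMIs, taken as free RNA, held 16.9%, 18.4%, 20.2% and 20.3%, below the share in cells in every library and closest to it in eWAT_ASPC. The inguinal DFAT library, with the lowest share of these transcripts, also had the highest share of mitochondrial UMIs (3.18%, against 2.03% to 2.23% in the others) and of UMIs from long genes. With UMIs outside the members and mitochondrial genes as denominator, the summed members had a log2 ratio of -0.08 for iWAT_DFAT over eWAT_DFAT and -0.16 over iWAT_ASPC. With all UMIs these were -0.08 and -0.14. The part of long genes in the difference was not tested. In eWAT_DFAT, 138 cells with adipocyte markers held 15.0%.

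**Figure D1:**
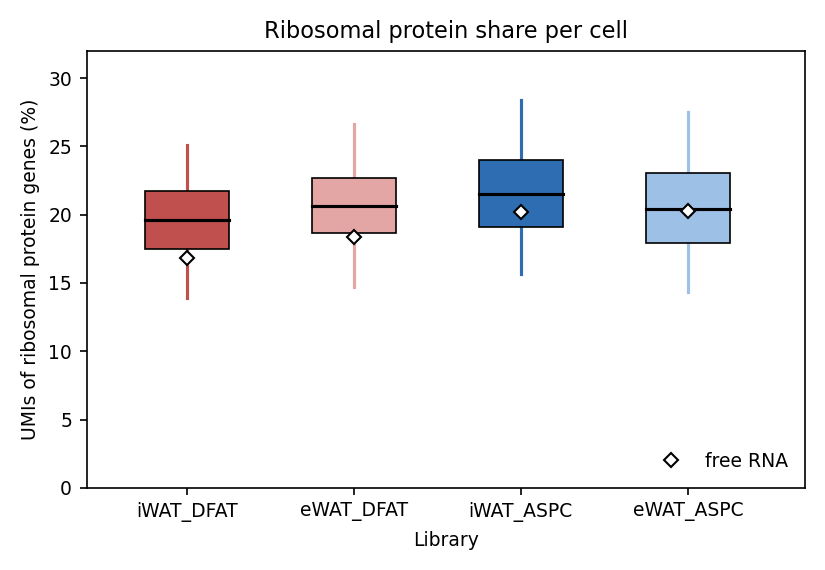
Share of UMIs from ribosomal protein genes per cell (y axis, percent) in the 4 libraries (x axis). Boxes span the quartiles with the median as a line, whiskers run from the 5% to the 95% point of cells, and white diamonds give free RNA. The boxes overlap, with medians between 19.6% and 21.5%.

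The members formed a narrow band of high expression with a few exceptions among the paralogues. In all 4 libraries 80 members reached at least 500 UMIs per 1000000 (CPM). UMIs of this 3′ method are counted at transcript ends and were not scaled by length. Rps2, at 5854 CPM on average, Rpl13 at 5716, the stalk protein Rplp1 at 5234 and Rps20 at 4647 were among the most abundant. Outside the band were Rpl7l1 (69.4 to 111 CPM), Rpl39l, Rpl3l with 8 or 9 UMIs per library and Rpl10l with none, which allows up to 0.0163 CPM (3 counts) in the shallowest library. Among the 81 members at 5 CPM or more in every library, the highest library was 1.26 times the lowest in the median. That factor was smallest for Rpl12, a protein at the base of the stalk, at 1.03, and largest for Rps28, a small subunit protein near the messenger RNA exit, at 1.69. The highest level stood in eWAT_ASPC for 29 members and in iWAT_ASPC for 28, but in iWAT_DFAT for only 2.

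Between the depots in DFAT cells, most members were slightly lower in the inguinal culture and Rpl39l alone was far higher. The summed members differed by a log2 ratio of -0.08 (iWAT over eWAT), and 64 of 82 members at 5 CPM or more were lower, against 42.8% of all genes tested. With libraries scaled so that the median gene had a ratio of 1 and as many genes lay above as below, 76 of 82 were lower. Past a 2-fold ratio stood 1 member, Rpl39l, whereas 12.2% of 10384 genes passed it. Rpl7l1, a large subunit assembly protein, had 72.5 CPM in iWAT_DFAT and 111 in eWAT_DFAT, a log2 ratio of -0.61 (-0.64 to -0.58). Rps27l had 794 and 1082 CPM (log2 ratio -0.45) and Rpl35, at the tunnel exit, 1118 and 1393 (-0.32). These were the members with the smallest ratios, and next to Rpl39l the largest belonged to Rpl22l1, at 750 and 613 CPM (0.29), and Rps20, at 5131 and 4507 (0.19).

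Between the depots in ASPCs, the members split by size. Their sum differed by a log2 ratio of 0.06, 48 of 82 were higher in iWAT_ASPC and 34 lower, where 42.7% of all genes were lower, and Rpl39l was again the single member past 2-fold, against 6.88% of 10135 genes. Rps28 had 2030 CPM in iWAT_ASPC and 1203 in eWAT_ASPC (log2 ratio 0.75), and Rpl31, close to the tunnel exit, 1223 and 762 (0.68). At the other end stood Rpl13 with 5355 and 6535 (-0.29), Rpl19 with 3479 and 4207 (-0.27) and the stalk base Rplp0 with 3951 and 4751 (-0.27). The proteins at the high end are short and those at the low end long, a property looked at after these values had been seen. Over 81 members without Rpl39l, the log2 ratio and the coding length had a Spearman correlation of -0.81 and a Pearson correlation of -0.75. Over 1333 other protein-coding genes at 100 CPM or more the Spearman value was 0.01. Of these, 657 had 900 or more coding nucleotides, a length that only 3 of the members reached, so the values cover unlike ranges of length. All 10 of these members under 300 coding nucleotides had ratios between 0.34 and 0.75, with a median of 0.52, and 20 members of 600 to 900 nucleotides had a median of -0.16. Other genes under 300 nucleotides had a median of 0.18. Those of 300 to 450, 450 to 600 and 600 to 900 nucleotides had -0.03, -0.09 and -0.07, and longer ones 0.02. Among the shorter lengths the other genes thus also declined, by less than the members.

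**Figure D2:**
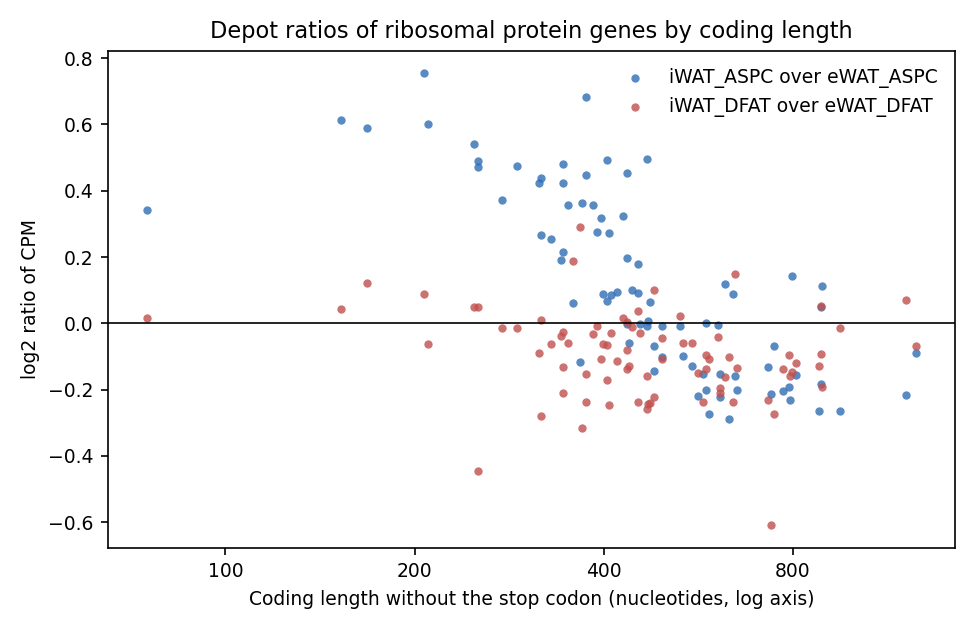
log2 ratio of CPM, iWAT over eWAT (y axis), against coding length without the stop codon (x axis, nucleotides, log axis) for 81 ribosomal protein genes without Rpl39l, in ASPCs (blue) and DFAT cells (red). In ASPCs the short genes lie between 0.34 and 0.75 and the ratio declines with length, while in DFAT cells the short genes have a median of 0.03 and those of 600 to 900 nucleotides one of -0.14, near the -0.16 of ASPCs.

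The Spearman value was -0.27 between the DFAT libraries, where the other genes had 0.31. It was -0.63 for eWAT_DFAT over eWAT_ASPC and 0.10 for iWAT_DFAT over iWAT_ASPC, with -0.07 and 0.26 over the other genes. In each case the other genes again included lengths that few members have. Each of these comparisons shares a library with the depot comparison of ASPCs. Members under 300 nucleotides had a median log2 ratio of 0.03 in eWAT_DFAT over eWAT_ASPC and of -0.38 in iWAT_DFAT over iWAT_ASPC. Those of 600 to 900 nucleotides had -0.20 and -0.21. The file of iWAT_ASPC names another version of the counting program, and its part in these ratios was not tested. The relation of length with free RNA was measured in each library as well. The ratio of free RNA to cells had a Spearman correlation with coding length of -0.67 in iWAT_ASPC and -0.80 in eWAT_ASPC, and of -0.32 in iWAT_DFAT and -0.06 in eWAT_DFAT. Over other genes at 100 CPM or more it was -0.27, -0.42, -0.37 and -0.23 in the same order. Members under 300 nucleotides were higher in free RNA than in cells by a median log2 ratio of 0.24 and 0.30 in these ASPC libraries, against -0.16 in each DFAT library. The share of free RNA within cells was not measured, and its part in the depot ratios was not tested beyond the subtraction given with the alternatives. All points of a library share its preparation and depth.

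Between cell types, the inguinal cultures showed a lower level of most members in DFAT cells, and the epididymal ones did not. The sum had a log2 ratio of -0.14 (DFAT over ASPC) in iWAT, where 73 of 82 members were lower, against 42.4% of all genes. In eWAT it was 0.00, with 45 of 81 higher, against 56.1% of all genes, and 36 lower, against 43.9%. With the median gene at a ratio of 1, 48 of 81 were lower there. No member passed 2-fold in iWAT or in eWAT, where 15.1% of 10426 genes and 13.1% of 10298 did. In iWAT, Rpl35 had 1118 CPM in DFAT cells and 1864 in ASPCs (log2 ratio -0.74), Rpl38, a small protein of the large subunit, 1454 and 2325 (-0.68), and Rpl39 2048 and 2999 (-0.55). The largest ratios there were those of Rpl41, the shortest member, at 0.18, of Rps20 at 0.17 and of Rpl27a at 0.09. In eWAT, Rpl31 had 1199 CPM in DFAT cells and 762 in ASPCs (0.65), Rps27l 1082 and 702 (0.62) and Rps25, in the head of the small subunit, 1558 and 1058 (0.56). Rpl10a (-0.42), Rpl22l1 (-0.42) and Rps2 (-0.35) had the smallest ratios. The 4 comparisons share libraries, and the ratios of a gene across them are not independent.

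**Figure D3:**
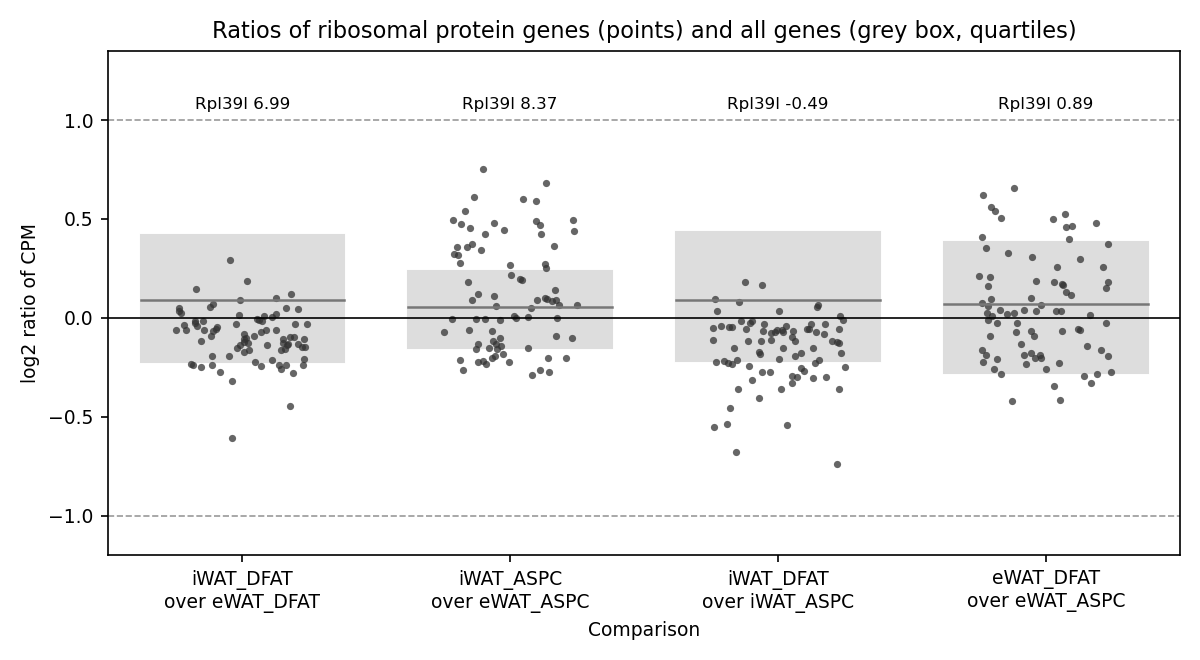
log2 ratio of CPM (y axis) in the 4 comparisons (x axis) for the 81 ribosomal protein genes other than Rpl39l at 5 CPM or more (points). Grey boxes give the quartiles of all genes at that level with their median as a line, dashed lines mark 2-fold, and the ratio of Rpl39l is printed above since it lies off the axis in both depot comparisons (between the eWAT libraries it compares levels under 1 CPM). All points lie inside the dashed lines.

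Paralogues differed in the share they took of their pair. Rpl22l1 made up 36.0% of the UMIs of Rpl22 and Rpl22l1 in iWAT_DFAT, 31.0% in eWAT_DFAT, 35.2% in iWAT_ASPC and 43.0% in eWAT_ASPC. The epididymal cultures thus held both extremes. Rpl36al held 40.4%, 45.3%, 37.6% and 40.4% of its pair with Rpl36a in the same order, and Rps27l, a p53-responsive paralogue of Rps27, held 36.6%, 44.9%, 34.8% and 35.1%. Both had their highest share in eWAT_DFAT. Rpl7l1 held 3.73%, 5.16%, 3.14% and 3.27% of its pair with Rpl7, again highest in eWAT_DFAT. Rpl3l held between 0.00194% and 0.00259% of its pair. Rps4l was not among the measured genes, so 7 of the 8 pairs could be compared.

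**Figure D4:**
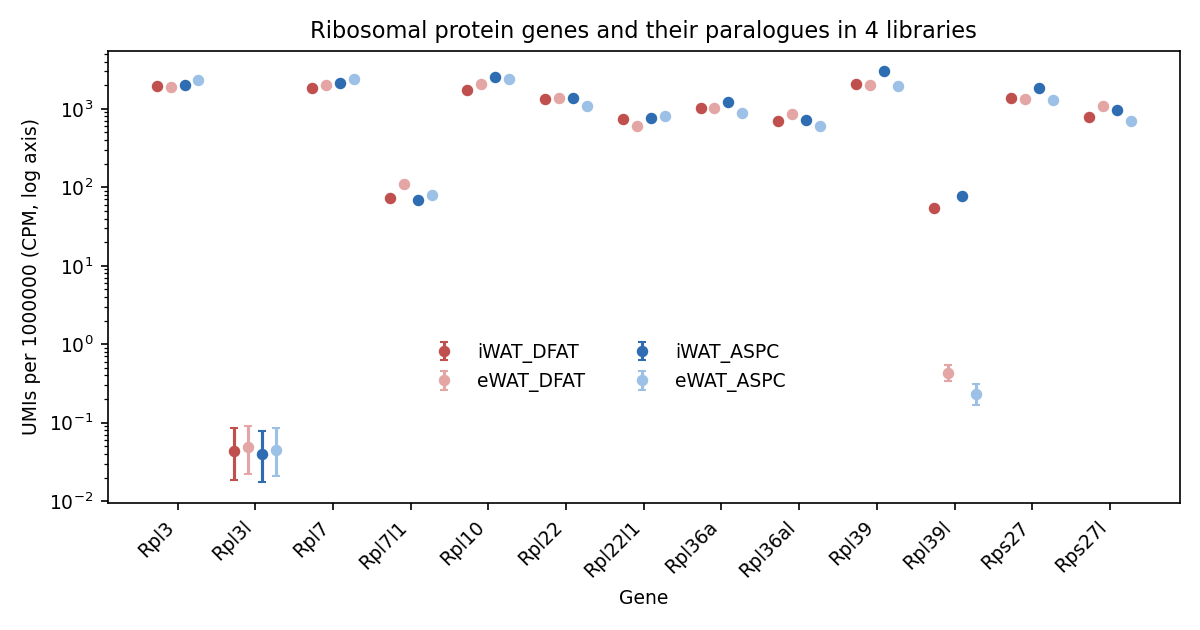
Level (y axis, CPM, log axis) of the paralogue pairs (x axis) in the 4 libraries (colours), with 95% counting intervals. Rpl10l, with 0 UMIs in every library, is not drawn. Rpl39l stands at 54.7 and 76.9 CPM in the iWAT libraries and at 0.431 and 0.233 in the eWAT libraries, whereas no other gene drawn spans 2-fold between libraries.

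Rpl39l was counted with 10045 UMIs in iWAT_DFAT and 80 in eWAT_DFAT, and with 15337 in iWAT_ASPC and 46 in eWAT_ASPC. These are 54.7 CPM (53.6 to 55.8), 0.431 (0.342 to 0.536), 76.9 (75.7 to 78.2) and 0.233 (0.170 to 0.311). Both inguinal libraries lay far above both epididymal ones, and within each depot the libraries lay closer together. The log2 ratio of iWAT over eWAT was 6.99 in DFAT cells and 8.37 in ASPCs, and that of DFAT over ASPC was -0.49 in iWAT. The gene was singled out with this pattern known, so these levels are a description. Rpl39, by contrast, had 2048, 1986, 2999 and 1961 CPM, and Rpl39l therefore made up 2.60% of the pair in iWAT_DFAT, 2.50% in iWAT_ASPC, 0.0217% in eWAT_DFAT and 0.0119% in eWAT_ASPC. Free RNA held Rpl39l at 48.3, 1.08, 76.1 and 0.141 CPM, the last from 1 UMI.

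Among 5545 genes at 20 CPM or more in both iWAT libraries, ranked by the smaller of the depot ratios, Rpl39l had rank 3. The T-box factor Tbx15 (log2 ratios 7.94 in DFAT cells and 7.59 in ASPCs) and the homeobox factor Shox2 (7.05 and 7.30), both known from regional patterning, came before it, and Crabp1 (5.82 and 6.66), which binds retinoic acid, came next. These genes were chosen after their values had been seen. The ranking holds only genes at 20 CPM or more in both iWAT libraries and puts those higher in iWAT first. Genes below that level in iWAT could not enter it, and those higher in eWAT stand low in it. Of the nearest protein-coding genes on chromosome 16, those above 1 CPM did not share the pattern. Of those under 1 CPM in every library, Atf7ip2 and Grin2a did not share it either, and Tekt5 had too few UMIs to show it. On one side, Emp2, at a distance of 107 kb, had 49.98, 103, 77.9 and 82.1 CPM in iWAT_DFAT, eWAT_DFAT, iWAT_ASPC and eWAT_ASPC. Atf7ip2, the closest at 17.8 kb, and Tekt5, at 183 kb, stayed under 1 CPM in every library. In the same order of libraries Atf7ip2 had 97, 70, 154 and 73 UMIs and Tekt5 1, 9, 1 and 4. The log2 ratios of iWAT over eWAT for Atf7ip2 were 0.49 in DFAT cells and 1.06 in ASPCs. On the other side lay Grin2a, at 175 kb and under 1 CPM in every library. It had 51, 41, 10 and 125 UMIs, with log2 ratios of 0.33 in DFAT cells and -3.66 in ASPCs. Much further off were 1810013L24Rik (1311 kb), at 38.1, 30.3, 41.6 and 38.2 CPM, and Usp7 (1378 kb), at 50.7, 33.6, 48.2 and 35.3. The log2 ratios of iWAT over eWAT in DFAT cells and ASPCs were 0.33 and 0.12 for 1810013L24Rik, 0.59 and 0.45 for Usp7, and -1.04 and -0.08 for Emp2.

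Within the iWAT libraries Rpl39l was counted both in cells with markers of G2 and M phase and in the others. Cells with 3 or more of 8 markers of G2 and M phase, and of none of the other lists, held 58.7 CPM in iWAT_DFAT and 80.9 in iWAT_ASPC, and the remaining cells outside those lists, which may be in other phases and had lower median depths, 50.02 and 72.4. Free RNA of these libraries held 48.3 and 76.1 CPM, about the level of these other cells. In iWAT_ASPC, 58 cells with endothelial markers held 22.1 CPM (14.3 to 32.7), 135 with glial markers 39.1 (31.1 to 48.4) and 28 with pericyte markers 91.8 (73.0 to 114). In iWAT_DFAT, 22 cells with endothelial markers held 9.82 CPM (3.19 to 22.9) and 18 with adipocyte markers 37.4 (21.4 to 60.8). No Rpl39l UMI was seen there in 11 cells with glial markers or 7 with pericyte markers, which allows up to 19.6 and 26.6 CPM (3 counts). These limits and intervals treat UMIs as independent, whereas Rpl39l UMIs gathered in a minority of cells, 27.4% in iWAT_DFAT. For so few cells the limits are too low and the intervals too narrow. The zeros therefore do not show a level below that of the library. The endothelial and glial values lie below the level of free RNA in the same library. That level describes what free RNA is made of and not how much of it a cell holds, which was not measured. In eWAT_ASPC, 547 cells with mesothelial markers held 1 Rpl39l UMI in all. Across cells of 5000 to 10000, 10000 to 20000, 20000 to 40000 and more UMIs the level ran from 48.7 to 57.7 CPM in iWAT_DFAT and from 51.5 to 79.0 in iWAT_ASPC.

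Most inguinal cells had no Rpl39l UMI, which does not show that they lacked the transcript since capture is partial, and a minority had several each, unlike Rpl7l1, the member nearest to it in level. It had a UMI in 27.4% of cells in iWAT_DFAT (26.4% to 28.4%) and in 39.4% in iWAT_ASPC (38.2% to 40.5%), where an even spread of the same UMIs over cells by depth would give 69.8% and 82.6%. Rpl7l1, at a similar level, had a UMI in 74.0% and 78.1%, against 78.7% and 79.8% under an even spread. After each cell was thinned to 5000 UMIs, Rpl39l had a UMI in 15.8% and 22.7% of cells and a ratio of variance to mean of 1.97 and 1.79, while Rpl7l1 had 1.02 in each. This ratio also depends on level, and the abundant members examined, those of the paralogue pairs, ran from 1.24 (Rpl36a) to 1.66 (Rps4x) in iWAT_DFAT and from 1.22 (Rpl36al) to 1.76 (Rpl39) in iWAT_ASPC. Among 2224 genes within 1.5-fold of its level in iWAT_DFAT, Rpl39l had rank 5 from the lowest by the ratio of measured to even detection (0.392, median of all 0.949), and rank 11 of 1679 in iWAT_ASPC (0.477, median 0.956). Lowest were Cxcl14, a chemokine, in iWAT_DFAT and Igfbp2, an IGF carrier, in iWAT_ASPC. In epididymal cells a UMI was seen in 0.201% and 0.208% of cells at medians of 27425 and 27617 UMIs. These libraries do not measure the background of the iWAT libraries, whose own free RNA holds the transcript at 48.3 and 76.1 CPM, and the part of free RNA in iWAT cells with a single UMI was not tested.

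In cells of 20000 to 40000 UMIs, 70.9% of iWAT_DFAT and 59.3% of iWAT_ASPC cells held 0 Rpl39l UMIs, 4.41% and 6.54% held 1, 3.60% and 3.68% held 2, 6.37% and 9.05% held 3 or 4, 10.7% and 16.2% held 5 to 9, and 3.99% and 5.18% held 10 or more. Cells at 0 were the largest class, and cells at 1 or 2 together were fewer than those at 5 to 9 in both libraries. Cells with a UMI held 4.81 Rpl39l UMIs on average in iWAT_DFAT and 5.25 in iWAT_ASPC, which is 188 and 180 CPM at median depths of 23406 and 26886.5 UMIs, values that hold only for cells chosen by having a UMI.

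**Figure D5:**
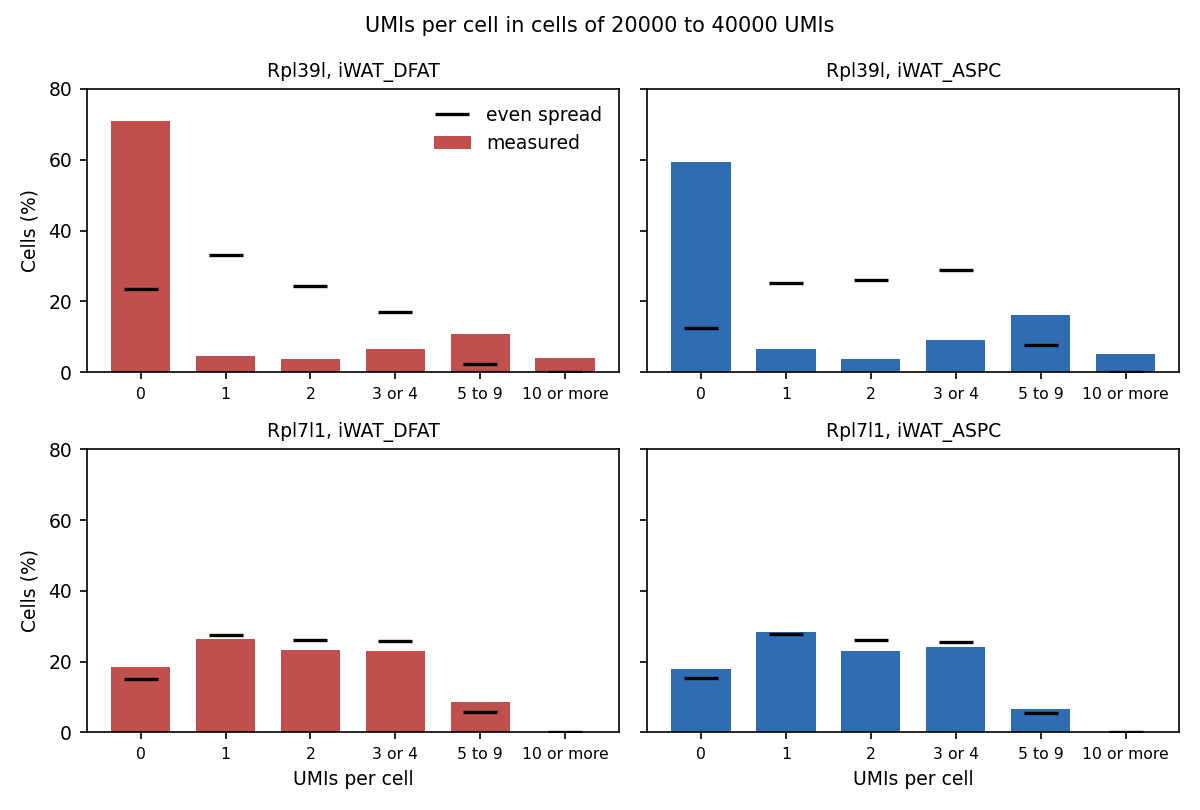
Percentage of cells (y axis) by number of UMIs (x axis) of Rpl39l (upper row) and Rpl7l1 (lower row) in iWAT_DFAT (left) and iWAT_ASPC (right), for cells of 20000 to 40000 UMIs. Black marks give an even spread at the mean level of all kept cells of the library and the depth of the cells drawn. For Rpl39l the bars at 0 (70.9% and 59.3%) and at 5 or more exceed the marks by far, whereas the bars of Rpl7l1 at 0 (18.6% and 18.0%) exceed theirs (14.9% and 15.3%) by less.

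Cells with Rpl39l UMIs held slightly more of nearly every other ribosomal protein transcript than cells with none. In the same depth range, 859 cells of iWAT_DFAT with 3 or more UMIs were set against 2895 with 0, and 1276 of iWAT_ASPC against 2484. The cells with UMIs were slightly deeper, with medians of 27200 against 25739 UMIs in iWAT_DFAT and 28169.5 against 26853.5 in iWAT_ASPC, and the part of depth was not tested. Members, Rpl39l included, took 19.5% of UMIs in cells with Rpl39l and 19.2% in those without in iWAT_DFAT, and 21.4% and 20.9% in iWAT_ASPC. Of the 81 other members 73 were higher in cells with Rpl39l in iWAT_DFAT, 55 with intervals above 0, against 46.5% of all genes, and 79 in iWAT_ASPC, 78 with intervals above 0, against 50.9%. These intervals count molecules of 1 library and say nothing of other cultures. They pool the cells of each group and leave out the spread between cells, so they are too narrow where that spread exceeds counting error. The members are also parts of 1 summed share, so the numbers of intervals above 0 are not so many separate results. The median log2 ratio was 0.02 in iWAT_DFAT and 0.03 in iWAT_ASPC. The ratios ran from -0.02 (Rps26) to 0.05 (Rpl36al) in iWAT_DFAT and from -0.02 (Rpl7l1) to 0.11 (Rpl22l1) in iWAT_ASPC. Rpl39 had 2031 CPM in cells with its paralogue and 2001 in those without in iWAT_DFAT, and 2987 and 2935 in iWAT_ASPC. Presence of the paralogue thus went with a difference in Rpl39 of 0.02 on the log2 scale in iWAT_DFAT and 0.03 in iWAT_ASPC.

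Among all genes but Rpl39l, the other members included, 1 of 6406 at 20 CPM or more passed 2-fold in iWAT_DFAT (0.0156%) and 0 of 6026 in iWAT_ASPC (0%). The gene was Fabp4, the fatty acid binding protein of adipocytes, with 138 CPM in iWAT_DFAT cells with Rpl39l and 343 in those without (log2 ratio -1.31), and with 39.4 and 69.3 CPM in iWAT_ASPC (-0.82). Without cells that held markers of other cell types no gene passed in either library. Plcb1, a phospholipase, was also lower in cells with Rpl39l (log2 ratios -0.80 and -0.29), and Irx1, a homeobox factor (0.60 and 0.25), and Spon2, a matrix protein (0.52 and 0.32), were higher. These genes were chosen after their values had been seen. The count depended on depth. In cells of 10000 to 20000 UMIs, 10 genes passed in iWAT_DFAT and 46 in iWAT_ASPC, all lower in cells with Rpl39l, and cells with markers of other types made up 1.37% and 7.44% of those without Rpl39l and none of those with it. Without those cells 4 genes passed in each library, which were Igfbp4, Il33, Lmcd1 and Pi16 in iWAT_DFAT and Ankrd1, Fabp4, Mmp3 and Olfr1033 in iWAT_ASPC, where 1 of them was higher. The members' ratios stayed between -0.07 and 0.14 at that depth.

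The 80 UMIs of eWAT_DFAT came from 13 of 6464 cells and the 46 of eWAT_ASPC from 14 of 6745, so that the mean of these libraries rests on 0.201% and 0.208% of their cells. The 3 highest cells of eWAT_DFAT held 15, 15 and 14 UMIs and the 3 highest of eWAT_ASPC 9, 7 and 5. In the cells with a UMI, which cannot lie below 1 UMI over their depth, the level was 213 CPM in eWAT_DFAT and 102 in eWAT_ASPC, beside 188 in iWAT_DFAT and 180 in iWAT_ASPC. None of these UMIs lay in a barcode shared with an iWAT library. The cells with 3 or more UMIs, 8 in each library, held 0 UMIs of Tbx15 and 0 of Shox2 among 244054 and 248915 UMIs, which allows up to 12.3 and 12.1 CPM (3 counts). Inguinal cells with 3 or more Rpl39l UMIs had 105 (iWAT_DFAT) and 109 CPM (iWAT_ASPC) of Tbx15 and 78.9 and 55.9 CPM of Shox2. Other genes high in iWAT were seen in the same epididymal cells at a few UMIs. In eWAT_DFAT these were 2 of Crabp1, 1 of Irx1 and 3 of Emb, and in eWAT_ASPC 1 of Irx1, 1 of Hoxc10 and 4 of Emb. Emb was thus at 12.3 CPM in these cells of eWAT_DFAT and at 11.7 in the eWAT_DFAT cells with no Rpl39l UMI, and at 16.1 and 11.2 in eWAT_ASPC. In eWAT_DFAT Crabp1 was at 8.19 and 1.55 CPM and Irx1 at 4.10 and 0.0972. In eWAT_ASPC Irx1 was at 4.02 and 0.903 and Hoxc10 at 4.02 and 3.45. These values rest on 1 or 2 UMIs each. Hoxc10 in eWAT_DFAT and Crabp1 in eWAT_ASPC had 0 UMIs in the cells with 3 or more Rpl39l UMIs. These genes too were chosen after their values had been seen.

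Other genes of the translation machinery were counted by list. The counts can be read against the shares of all genes, of which 42.8% were lower in iWAT between the DFAT libraries and 42.7% between the ASPC libraries, 42.4% lower in DFAT cells than in ASPCs of iWAT and 56.1% higher in those of eWAT. Past 2-fold in either direction stood 12.2% of all genes between the DFAT libraries and 6.88% between the ASPC libraries. Between DFAT cells and ASPCs these shares were 15.1% in iWAT and 13.1% in eWAT. Of 78 mitochondrial ribosomal proteins, 76 were lower in iWAT_DFAT than in eWAT_DFAT (median log2 ratio -0.34, all genes 0.09), led by Mrps6 at 64.1 and 118 CPM, and none passed 2-fold in any comparison. In ASPCs 40 of 78 were lower in iWAT (median -0.00), with Mrps27 furthest from a ratio of 1 (0.45). Between DFAT cells and ASPCs, 61 were lower in DFAT cells of iWAT (median -0.15, Mrpl55 -0.43) and 63 were higher in those of eWAT (median 0.25, Mrps27 0.93). Of the assembly factors and chaperones of ribosomal proteins in iWAT_DFAT, 16 of 20 were lower than in eWAT_DFAT (median -0.44), with Mrto4, which places the stalk, at 85.8 and 166 CPM. In eWAT 19 of 20 were higher in DFAT cells than in ASPCs (median 0.55), and Grwd1, a chaperone of Rpl3, passed 2-fold at 30.3 and 14.4 CPM. Riok3, a kinase of late small subunit assembly, had 130 CPM in iWAT_DFAT and 44.9 in iWAT_ASPC (log2 ratio 1.53), where 10 of 20 were higher. In ASPCs 17 of 20 were higher in iWAT, led by Tsr2, the chaperone of Rps26, at 0.56.

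Of 37 translation factors and related genes, 31 were lower in iWAT_DFAT than in eWAT_DFAT (median -0.13), and Nap1l1, a histone chaperone whose messenger RNA also begins with a pyrimidine tract, was the 1 gene past 2-fold in any comparison, with 1443 CPM in eWAT_DFAT and 587 in eWAT_ASPC (log2 ratio 1.30). In the other comparisons 19 were lower in ASPCs of iWAT, 24 lower in DFAT cells of iWAT and 22 higher in those of eWAT. Furthest from a ratio of 1 were Eif4e, the cap-binding factor, which was higher in ASPCs of iWAT (0.34), and Eif2s2, a subunit of the initiator tRNA carrier, in DFAT cells of iWAT (-0.87). Of 16 regulators of ribosomal protein synthesis, 1 passed 2-fold in each cell type comparison (all genes: 15.1% in iWAT and 13.1% in eWAT). It was Eif4ebp1, the translation repressor that mTOR releases, with 212 CPM in iWAT_DFAT against 460 in iWAT_ASPC (-1.11) and 264 in eWAT_DFAT against 539 in eWAT_ASPC (-1.03). Furthest from a ratio of 1 between the depots were Maf1, a repressor of RNA polymerase III, in DFAT cells (0.74) and Tsc2, a brake on mTOR, in ASPCs (-0.55). Of the ribosomal proteins with other symbols, Fau, the fusion of Rps30, had 2377, 2443, 2436 and 2176 CPM in iWAT_DFAT, eWAT_DFAT, iWAT_ASPC and eWAT_ASPC, and Rack1, a scaffold on the small subunit, 1709, 1936, 2345 and 2128.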

How the data were processed

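UMI counts per gene and barcode were deposited by the authors as made with Cell Ranger against mm10 (the file headers give version 7.1.0, or 4 for iWAT_ASPC, and the submitters' processing notes 7.0.0), before removal of background, cell filtering and doublet calling. Counts were summed per library over the barcodes described above and scaled to 1000000 UMIs (CPM). Poisson, binomial and conditional binomial intervals at 95% were exact, and the ratio code was tested on simulated data. A gene was counted as past a threshold at a 2-fold ratio and 5 CPM in the higher library. An even spread is a Poisson draw at the library's mean level and each cell's depth. A gene at 0 was given a limit of 3 counts.

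Members and lists were chosen with earlier results of these data known. Named genes are the paralogue pairs, the 3 largest and 3 smallest ratios per comparison, the 5 highest levels, members under 1 CPM, the gene of each list furthest from a ratio of 1, and 3 neighbours of Rpl39l on each side. The division of cells by Rpl39l and the use of coding length were added after the data had been seen. Alternatives were the lower limit of 500 UMIs of the Methods, a rank-based cell call, subtraction of free RNA at 5%, median-ratio scaling, thinning to 5000 UMIs, another denominator and cells without markers of other types. Software was pandas 2.3.3, Biopython 1.88, scipy 1.17.1, matplotlib 3.10.9 and numpy 2.4.6 under Python 3.11.15. Some genes that these rules name are not reported here.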

Additional observations from a re-analysis of the deposited data

Results flagged for a closer look

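Rps27l is given here because its depot ratio had opposite signs in the cell types: the log2 ratio of iWAT over eWAT was -0.45 in DFAT cells (794 and 1082 CPM) and 0.47 in ASPCs (973 and 702 CPM). Each group is 1 library, so the difference between the ratios was not tested. Rps27, its main gene, had 1376 and 1329 CPM in DFAT cells and 1823 and 1298 in ASPCs.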

How the results depend on the processing

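No paired analysis was possible because each group is 1 library and the groups compared share a single replicate number, and a joint fit over depot and cell type was not run. The single member past 2-fold in each depot comparison, and the absence of any in the cell type comparisons, were the same under all 9 alternatives tried for those counts. Rpl39l kept its direction under all 7 alternatives, with log2 ratios of 6.80 to 7.12 between depots in DFAT cells, 8.13 to 8.38 in ASPCs, -0.58 to -0.48 between DFAT cells and ASPCs of iWAT (-0.58 with median-ratio scaling, -0.53 with thinned cells) and 0.74 to 0.88 in eWAT. The eWAT ratio rests on 80 UMIs from 13 cells and 46 from 14, which the alternatives share, so their agreement there is no separate support. The share of cells with a UMI was 0.201% in eWAT_DFAT and 0.208% in eWAT_ASPC. The summed members moved by more than counting error under most settings. In DFAT cells between depots the log2 ratio was -0.17 with median-ratio scaling, -0.09 without cells of other types and -0.08 with the lower limit of 500 UMIs, the rank-based cell call, free RNA subtracted or cells thinned. In ASPCs it was 0.01 with median-ratio scaling, 0.08 with thinned cells, 0.07 with UMIs outside the members and mitochondrial genes as denominator and 0.06 otherwise. In iWAT between DFAT cells and ASPCs it was -0.23 with median-ratio scaling, -0.16 with the other denominator, -0.15 with thinned cells, -0.13 with free RNA subtracted and -0.14 otherwise. In eWAT it was -0.07 with median-ratio scaling, 0.01 with thinned cells, free RNA subtracted or other types left out, and between -0.00 and 0.00 otherwise, so its direction depends on the setting. The numbers of other genes past 2-fold between cells with and without Rpl39l were 1 and 0 with a minimum of 5 or of 1 UMI as well. Counting error is small at this depth for all members but Rpl3l, Rpl10l and Rpl39l in eWAT. The limit is the single culture per condition, so differences between cultures, batches and cell handling cannot be told apart from those between depots and cell types.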
